A study of Arabidopsis thaliana with 12 samples.

Results

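The genes described here are 51 *Arabidopsis thaliana* genes of auxin response and transport, chosen by locus code from 27444 protein-coding genes of the 5 nuclear chromosomes. They comprise 12 *ARF* genes, 6 *TIR1/AFB* genes, 21 *Aux/IAA* genes, 8 *PIN* genes and 4 *AUX1/LAX* genes. Names were checked against RefSeq, and all 51 loci carried the name used here as a symbol or a synonym. Accessible chromatin was profiled with ATAC-seq, in which the transposase Tn5 inserts sequencing adapters into DNA that nucleosomes leave exposed. The samples used were mature seeds of Col, the wild-type accession, and of *h3.3ko*, with 2 biological replicates per genotype and 4 libraries in all. *h3.3ko* lacks the histone variant H3.3 and combines *htr4* and *htr5* mutations made with CRISPR-Cas9 with a T-DNA insertion in *htr8*. Its seeds came from plants heterozygous for a *pHTR5::HTR5* transgene and were recognised by the absence of the mCherry marker on that transgene, so the mother plants carried *HTR5*, which encodes H3.3. All seeds had been stored for 3 months, and nuclei were sorted after staining, with no step that parts embryo from endosperm named in the methods.

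The values are 2 lists of regions deposited by the authors, one with 3278 accessibility decreased regions and one with 3436 accessibility increased regions in *h3.3ko*. Each region has a position and 1 log2 fold change, in which negative values mean lower accessibility in *h3.3ko* than in Col. The lists hold no value per library, so depth is unknown from them, no spread between replicates can be given and no test across samples was possible. A gene was counted when a region overlapped its body or the 1 kb upstream of its transcription start site (TSS) by at least 1 bp. A gene without a listed region may still have changed in accessibility by less than the authors' thresholds of 2-fold and an adjusted *P* value of 0.05.

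Auxin is perceived by the F-box proteins TIR1 and AFB, which join Aux/IAA repressors to a ubiquitin ligase in the presence of the hormone. Destruction of the Aux/IAA proteins frees the ARF transcription factors, which bind auxin response elements in promoters. The Aux/IAA proteins recruit the TOPLESS co-repressors to ARF target genes. PIN proteins carry auxin out of cells or into the endoplasmic reticulum, and AUX1/LAX proteins carry it into cells. In seeds, auxin strengthens dormancy through ARF10 and ARF16, which keep the abscisic acid regulator ABI3 expressed.

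Decreased regions counted at these genes lay across the TSS or upstream of it. The stretches of them upstream of the TSS are shown first for the 5 members whose decreased region covers the TSS with the largest log2 fold changes. They are given 5′ to 3′ along the gene, from the RefSeq copy of TAIR10.1, and capitals mark matches to the G-box CACGTG or to the auxin response elements TGTCTC and TGTCGG on either strand. Each runs up to the base before the TSS and holds at most 250 bases.
*IAA13*, chr2:14116090-14116339, minus strand: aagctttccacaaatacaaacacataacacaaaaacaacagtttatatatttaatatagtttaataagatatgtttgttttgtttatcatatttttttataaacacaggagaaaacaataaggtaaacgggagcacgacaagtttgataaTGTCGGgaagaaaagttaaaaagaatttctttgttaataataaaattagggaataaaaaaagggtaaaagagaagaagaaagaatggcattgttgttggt
*IAA2*, chr3:8182096-8182169, minus strand: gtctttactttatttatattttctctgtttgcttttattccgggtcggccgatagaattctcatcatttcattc
*TIR1*, chr3:23276631-23276880, minus strand: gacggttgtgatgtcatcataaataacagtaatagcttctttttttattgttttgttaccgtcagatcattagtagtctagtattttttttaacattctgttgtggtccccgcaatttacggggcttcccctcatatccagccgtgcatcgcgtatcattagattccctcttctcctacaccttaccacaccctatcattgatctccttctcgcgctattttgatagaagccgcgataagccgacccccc
*AFB2*, chr3:9867402-9867651, plus strand: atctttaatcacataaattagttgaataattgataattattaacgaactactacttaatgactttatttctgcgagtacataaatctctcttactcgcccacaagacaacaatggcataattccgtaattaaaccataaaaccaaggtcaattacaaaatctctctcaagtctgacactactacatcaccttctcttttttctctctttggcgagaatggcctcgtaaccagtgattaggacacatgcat
*IAA16*, chr3:1290892-1291141, minus strand: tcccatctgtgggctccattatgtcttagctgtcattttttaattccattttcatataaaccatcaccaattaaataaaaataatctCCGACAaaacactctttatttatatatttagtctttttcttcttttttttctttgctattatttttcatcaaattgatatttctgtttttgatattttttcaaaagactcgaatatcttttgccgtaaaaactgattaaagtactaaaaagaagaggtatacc

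Of these 5, *IAA13* and *IAA16* held a TGTCGG element upstream of the TSS, 100 and 163 bp before it. The other three stretches held no match.

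The next 2 stretches come from decreased regions farther upstream and are shown because they hold a G-box. The stretch at *AFB1*, which also held one, is not printed because it reaches into a neighbouring gene. That of *IAA2* held a G-box 847 bp and a TGTCTC element 792 bp before the TSS, and that of *IAA11* a G-box 541 bp before it.
*IAA2*, chr3:8182863-8183112, minus strand: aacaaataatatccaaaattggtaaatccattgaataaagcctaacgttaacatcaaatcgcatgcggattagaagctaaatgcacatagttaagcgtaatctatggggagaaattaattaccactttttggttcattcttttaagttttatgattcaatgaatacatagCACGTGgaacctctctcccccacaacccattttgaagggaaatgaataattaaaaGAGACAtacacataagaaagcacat
*IAA11*, chr4:14141416-14141665, plus strand: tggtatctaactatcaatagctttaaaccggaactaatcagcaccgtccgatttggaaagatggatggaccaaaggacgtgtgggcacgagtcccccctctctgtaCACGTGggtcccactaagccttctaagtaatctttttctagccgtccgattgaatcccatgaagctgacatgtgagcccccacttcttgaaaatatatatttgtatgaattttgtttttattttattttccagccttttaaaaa

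The member with the most matches in the 250 bp before its TSS, *IAA19*, had no listed region. It was chosen after its values were seen and held 3 TGTCTC elements and a G-box.
*IAA19*, chr3:5263751-5264000, plus strand: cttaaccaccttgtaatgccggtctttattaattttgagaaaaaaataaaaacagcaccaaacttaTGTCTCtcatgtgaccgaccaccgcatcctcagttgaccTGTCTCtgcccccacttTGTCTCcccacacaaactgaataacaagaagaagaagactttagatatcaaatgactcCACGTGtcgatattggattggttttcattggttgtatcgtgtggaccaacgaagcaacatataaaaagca

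Over the whole set, 14 of the 51 genes (27.5%) had a decreased region, beside 14.7% of all protein-coding genes. An increased region was found at 13 genes (25.5%), beside 16.0% of all protein-coding genes. Regions of both kinds were found at 7 genes (13.7%), beside 3.35%. The 15 decreased regions had a median log2 fold change of -2.15, between -3.01 and -1.66, beside -1.89 over the whole list. The 15 increased regions had a median of 3.34, between 2.34 and 4.58, beside 2.97 over the whole list. A change of more than 4-fold was held by 11 of the 15 decreased regions (73.3%, beside 42.0% of the list) and by 15 of the 15 increased ones (100%, beside 87.0%).

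**Figure D1:**
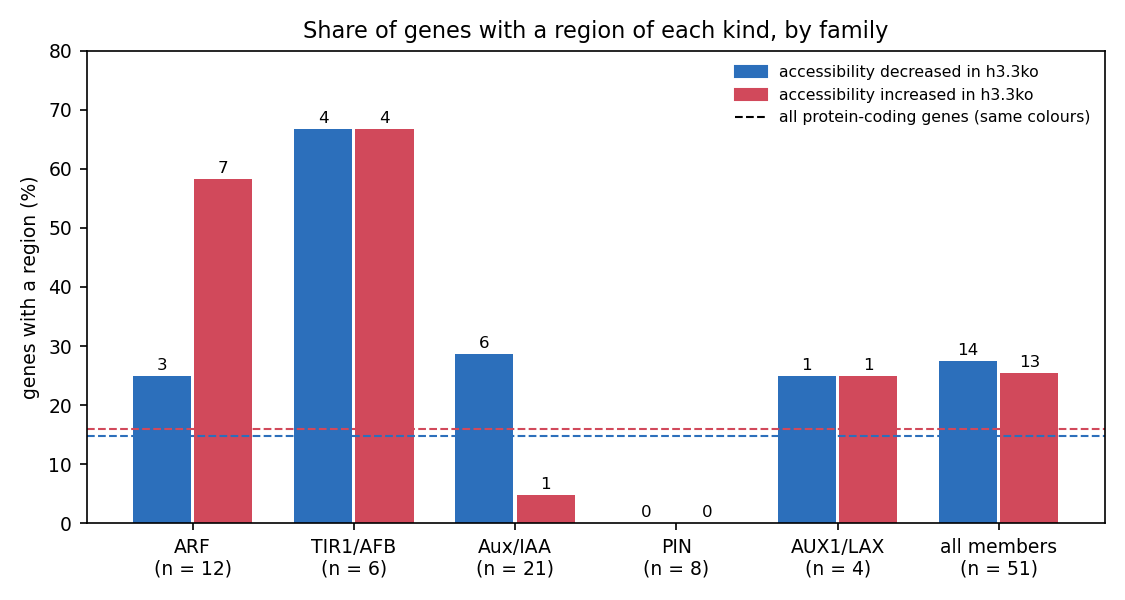
Share of member genes (%) with an accessibility decreased or increased region in *h3.3ko* mature seeds, by family, with the number of genes above each bar. Dashed lines mark all protein-coding genes, 14.7% for decreased and 16.0% for increased regions. The *TIR1/AFB* bars stand at 66.7% for both kinds, and the *PIN* genes have none.

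**Figure D2:**
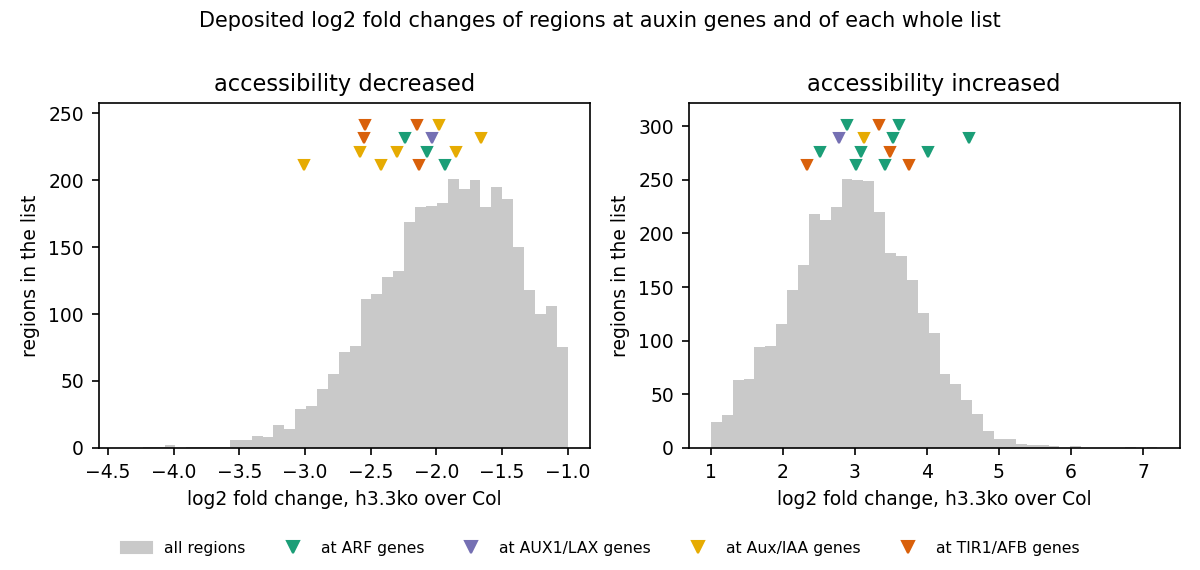
Deposited log2 fold changes (*h3.3ko* relative to Col) for all regions of each list (grey histograms, number of regions) and for the regions at auxin genes (triangles, coloured by family, whose height only separates them). Members lie between -3.01 and -1.66 in the decreased list and between 2.34 and 4.58 in the increased list.

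By family, the counts of each kind of region were as follows, with no test of the difference between families. Of all protein-coding genes, whatever their length, 14.7% had a decreased and 16.0% an increased region. *TIR1/AFB* genes had both kinds, with 4 of 6 genes in each count (66.7%). *ARF* genes had mostly increased regions, at 7 of 12 genes (58.3%), and decreased regions at 3 of 12 (25.0%). *Aux/IAA* genes had mostly decreased regions, at 6 of 21 genes (28.6%), and an increased region at 1 of 21 (4.76%). None of the 8 *PIN* genes had a region of either kind, and of the 4 *AUX1/LAX* genes 1 had both. These families hold 4 to 21 members, so a single gene moves a share by between 4.76 and 25.0 percentage points. The *ARF* and *Aux/IAA* shares cover the members alone and not the whole families. Of 11 further *ARF* genes, counted separately below, 2 (18.2%) had a decreased region and 0 an increased one. Of 8 further *Aux/IAA* genes, 0 had a region of either kind.

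The receptors were the family with regions at the largest share of its genes. *TIR1* (AT3G62980), the founding auxin receptor, had a decreased region of 638 bp at chr3:23276376-23277013 with a log2 fold change of -2.55. It began 383 bp upstream of the TSS and ended in the first untranslated exon, 254 bp past it, where it held a G-box 108 bp downstream of the TSS. The increased region of *TIR1* was 134 bp wide, the narrowest at any member, lay wholly in coding sequence from 2883 to 3016 bp past the TSS, and had a log2 fold change of 3.34. *AFB2* (AT3G26810) had the same layout. Its decreased region at chr3:9867387-9867836 spanned the TSS from 265 bp before to 184 bp past it (-2.54), and its increased region covered 920 bp from 1994 to 2913 bp (2.34), of which 780 bp were coding.

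*AFB3* (AT1G12820), the closest relative of *AFB2*, had a decreased region of 359 bp at chr1:4371328-4371686 that stopped 30 bp short of the TSS (-2.15). Its increased region of 1220 bp began 1391 bp past the TSS and ran 72 bp beyond the transcription end site (TES), with a log2 fold change of 3.75, the highest of the family. That region also overlapped the body of the convergent gene AT1G12810 and contained the TSS of the long non-coding RNA gene AT1G04977. At *AFB1* (AT4G03190), the one member of the family with a decreased region alone, the region lay 533 to 998 bp upstream (-2.13). It covered the TSS of the divergent neighbour AT4G03200 and held a G-box, so it cannot be told apart to which of the 2 genes it belongs. *AFB5* (AT5G49980), a receptor of the second subclass that also binds the herbicide picloram, had an increased region alone (3.49), with 344 bp in the last untranslated exon and 375 bp beyond the TES. Its relative *AFB4* (AT4G24390) had no region within the window, and the nearest was a decreased region 628 bp downstream of its TES. The upstream parts of the *AFB2* and *AFB3* regions are set side by side below, with runs of at least 8 bases found in both in capitals.
*AFB2*, chr3:9867402-9867651, plus strand: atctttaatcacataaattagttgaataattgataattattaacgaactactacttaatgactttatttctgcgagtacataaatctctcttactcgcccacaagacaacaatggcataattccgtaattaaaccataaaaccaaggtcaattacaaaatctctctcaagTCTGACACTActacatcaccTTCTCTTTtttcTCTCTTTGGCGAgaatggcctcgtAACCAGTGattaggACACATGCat
*AFB3*, chr1:4371328-4371577, minus strand: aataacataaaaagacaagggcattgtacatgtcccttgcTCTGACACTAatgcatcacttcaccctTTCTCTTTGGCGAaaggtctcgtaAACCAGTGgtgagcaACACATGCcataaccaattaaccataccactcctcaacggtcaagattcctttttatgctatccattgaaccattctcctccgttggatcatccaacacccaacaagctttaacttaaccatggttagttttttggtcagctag

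Such runs took up 46 of the 250 bases of *AFB2* and 39 of those of *AFB3*. Among the 130 other ordered pairs of the 250-base stretches at members, the same count had a median of 9 and reached 48, so the value of *AFB2* and *AFB3* lay within their range.

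**Figure D3:**
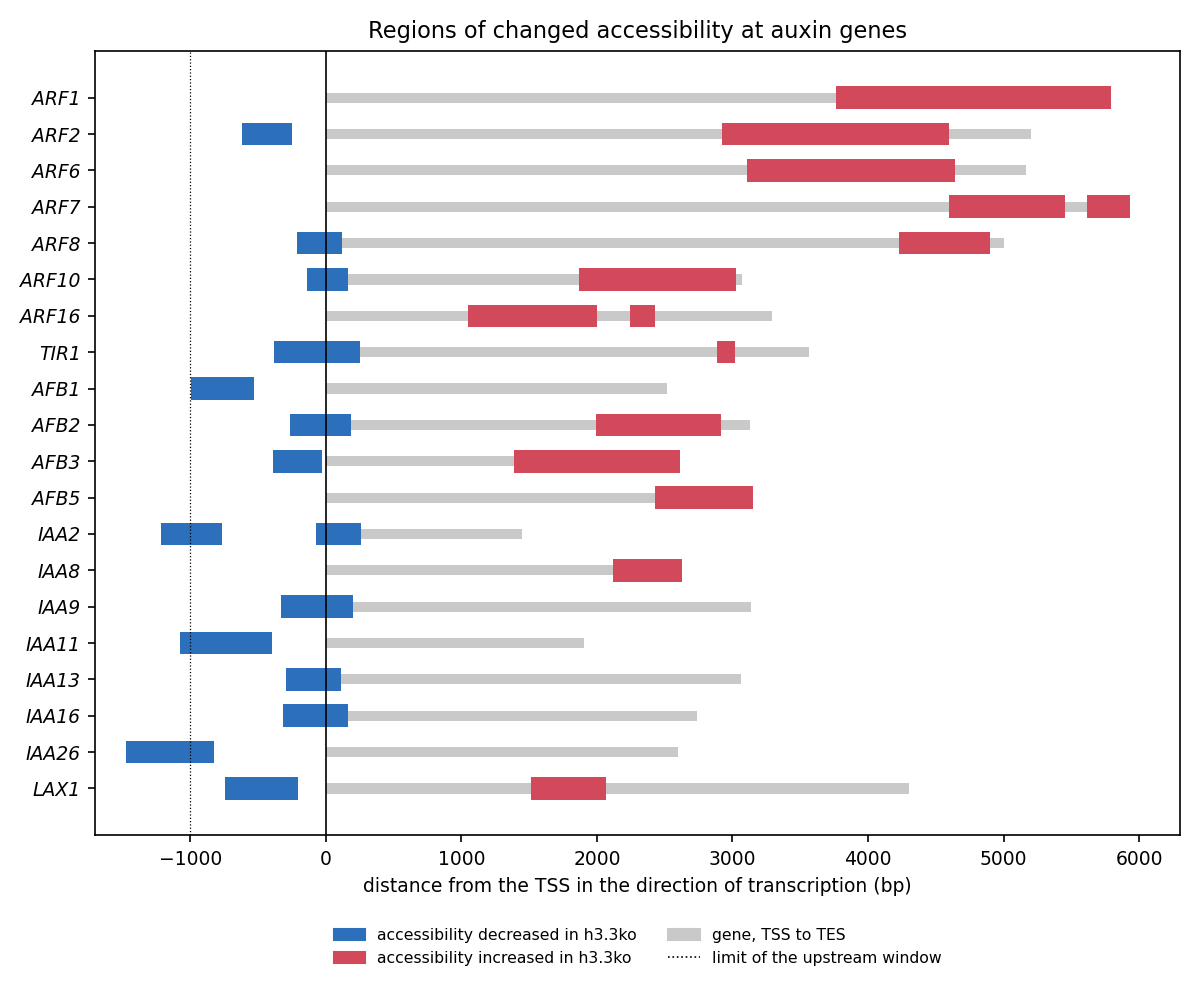
Positions of the decreased (blue) and increased (red) regions at the 20 members that have one, in bp from the TSS along the direction of transcription, with the gene from TSS to TES in grey and the limit of the upstream window at 1000 bp dotted. Blue regions lie upstream of or across the TSS, and red regions lie inside genes or across the TES.

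The 9 increased regions at *ARF* genes were 188 to 2024 bp wide, and 8 of them were centred in the last 30% of the gene or beyond it. The highest log2 fold change of any member, 4.58, was that of *ARF2* (AT5G62000), a repressor of the ARF class that acts in seed size and senescence. This increased region was rank 92 of 3436 in its list, covered 1673 bp at chr5:24913112-24914784, and 1298 bp of it were coding. *ARF2* also had a decreased region of 372 bp that ended 251 bp upstream of the TSS (-2.24) and contained the TSS of the long non-coding RNA gene AT5G09045. *ARF1* (AT1G59750), the nearest relative of *ARF2* in its class, had the widest region of all members. It was increased (3.42), 2024 bp wide, and ran from 3767 bp past the TSS to 646 bp beyond the TES into the body of *MTR4*. *ARF3* (AT2G33860) and *ARF4* (AT5G60450), 2 further repressors, which act in leaf polarity, had no region. The nearest ones lay 12510 and 6974 bp from their bodies.

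Of the 5 activator ARFs, 3 had an increased region. *ARF6* (AT1G30330) had an increased region of 1534 bp (3.61), of which 1373 bp were coding. *ARF8* (AT5G37020), which acts with *ARF6* in flower maturation and is likewise a target of miR167, had an increased region of 666 bp (3.53) that ended 104 bp before the TES. *ARF8* also had a decreased region of 333 bp across the TSS (-1.93). *ARF7* (AT5G20730), which acts in lateral root formation and phototropism, had 2 increased regions. One of 857 bp lay inside the gene (3.01), and one of 316 bp lay across the TES (2.89), with 200 bp beyond it in the convergent gene *CPN20*. *ARF19* (AT1G19220), which overlaps in function with *ARF7*, had none, and the nearest was a decreased region 674 bp downstream. *ARF5* (AT1G19850), also known as *MONOPTEROS*, which patterns the embryo, had none either, and the nearest was a decreased region 3250 bp upstream.

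Of the 3 genes aimed at by miR160, *ARF10* (AT2G28350) had a decreased region of 302 bp across the TSS at chr2:12113752-12114053 (-2.07). Its increased region of 1160 bp (4.02) ended 41 bp before the TES. *ARF16* (AT4G30080) had 2 increased regions of 953 bp (2.51) and 188 bp (3.09), the first of them from 1048 to 2000 bp past the TSS. The midpoint of that region stood at 46.3% of the gene length, one of the 2 increased regions at members that were centred in the first 50% of the gene. *ARF16* had no decreased region upstream, and the nearest lay 1329 bp downstream of its TES. *ARF17* (AT1G77850) had no region, and the nearest was an increased one 11592 bp upstream.

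At the *Aux/IAA* genes, decreased regions covered the TSS in 4 of 21 genes. The lowest log2 fold change of any member, -3.01, was that of *IAA13* (AT2G33310), rank 90 of 3278 in its list, for a region of 407 bp at chr2:14115980-14116386 across the TSS. IAA13 is the sister of IAA12 (BODENLOS), the partner of ARF5 in the embryo. *IAA12* (AT1G04550) itself had no region, and the nearest was 9365 bp away. An increased region lay 206 bp downstream of the TES of *IAA13*, outside the window used. *IAA2* (AT3G23030), an early auxin-induced gene, had 2 decreased regions. One of 330 bp covered the TSS and the start of the coding sequence (-2.58), and the other lay 768 to 1217 bp upstream (-1.85).

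*IAA16* (AT3G04730) had a decreased region of 476 bp across the TSS (-2.42). *IAA9* (AT5G65670), whose counterpart in tomato acts in leaf and fruit development, had one of 528 bp across the TSS (-2.30), which also contained the TSS of the long non-coding RNA gene AT5G09425. At *IAA11* (AT4G28640) the decreased region of 680 bp (-1.98) lay 398 to 1077 bp upstream and covered the TSS of the divergent gene *ABCB23*. At *IAA26* (AT3G16500) it lay 825 to 1475 bp upstream (-1.66), with 176 bp inside the window. This was the member just inside the 1 kb limit, and a window of 2 kb added no member. The single increased region in the family, at *IAA8* (AT2G22670), was 504 bp wide (3.12) and lay across the TES with 210 bp beyond it. No *Aux/IAA* gene had both kinds.

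The remaining 14 *Aux/IAA* genes had no region. They include *IAA3* (AT1G04240, *SHY2*), *IAA7* (AT3G23050, *AXR2*), *IAA14* (AT4G14550, *SLR*), *IAA17* (AT1G04250, *AXR3*) and *IAA18* (AT1G51950), which are known from dominant auxin-resistant mutants. The nearest regions to these 5 lay 13359, 11294, 9293, 4385 and 15411 bp from the gene body, in this order. *IAA28* (AT5G25890), a repressor of lateral root initiation, had a decreased region 649 bp downstream of its TES (-2.95). For *IAA10* (AT1G04100) the nearest region was an increased one 2757 bp upstream. For *IAA1* (AT4G14560), *IAA4* (AT5G43700) and *IAA19* (AT3G15540), which are induced early by auxin, the distances were 4472, 7586 and 8078 bp. For *IAA5* (AT1G15580), *IAA6* (AT1G52830) and *IAA27* (AT4G29080) they were 19540, 21783 and 20805 bp.

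Of the transport genes, *LAX1* (AT5G01240), an auxin influx carrier, had a decreased region of 543 bp that ended 203 bp upstream of the TSS (-2.03). Its increased region of 556 bp (2.78) lay 1512 to 2067 bp past the TSS with its midpoint at 41.6% of the gene length, the lowest such percentage among the increased regions of members. The other influx genes had none. The nearest regions lay 25451 bp from *AUX1* (AT2G38120), 712 bp downstream of *LAX2* (AT2G21050) and 3639 bp from *LAX3* (AT1G77690).

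The *PIN* genes had no region in any setting tried. *PIN3* (AT1G70940), *PIN4* (AT2G01420) and *PIN7* (AT1G23080), plasma membrane carriers expressed in embryo and root, had distances of 23733, 3353 and 3787 bp from the gene body to the nearest region. *PIN2* (AT5G57090), the carrier of root gravitropism, had a distance of 13933 bp. *PIN5* (AT5G16530) and *PIN8* (AT5G15100), which act at the endoplasmic reticulum, had distances of 2156 and 5657 bp, and *PIN6* (AT1G77110) one of 2343 bp. Whether these genes have accessible chromatin in mature seeds is not shown by the lists, which hold only changed regions.

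Within the window, the 2 kinds of region lay mostly at opposite ends of the genes. The window reaches 1 kb upstream but not beyond the TES, so decreased regions wholly past the TES were left out. A window with 1 kb downstream added such regions at *ARF19*, *AFB4*, *IAA28* and *LAX2*. A decreased region covered the TSS of 8 members (15.7%), namely *ARF8*, *ARF10*, *TIR1*, *AFB2*, *IAA2*, *IAA9*, *IAA13* and *IAA16*, beside 8.26% of all protein-coding genes. An increased region covered the TES of 5 members (9.80%), namely *ARF1*, *ARF7*, *AFB3*, *AFB5* and *IAA8*, beside 6.63%. The midpoints of 13 of 15 decreased regions lay upstream of the TSS (86.7%, beside 69.8% over all genes with one). Of the 15 increased regions, 13 had their midpoint in the last 30% of the gene or beyond it (86.7%, beside 70.2%). In all 7 genes with both kinds, *ARF2*, *ARF8*, *ARF10*, *TIR1*, *AFB2*, *AFB3* and *LAX1*, the decreased region was the one nearer the 5′ side, as in 95.0% of the 920 protein-coding genes with both. The stretch between them without a listed region was 1420 bp in *AFB3* and 4112 bp in *ARF8*, the extremes.

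Of the bases in increased regions at members, 66.8% were coding, 15.9% untranslated exon, 13.0% intron and 4.36% outside genes, beside 45.0%, 24.5%, 17.1% and 13.5% over the whole list. Of those in decreased regions at members, 64.8% lay outside genes and 32.2% in untranslated exons, beside 61.1% and 25.8%. Coding sequence made up 3.04% of them, beside 9.74% over the list. Of the 30 regions at members, 5 (16.7%) also overlapped the window of another protein-coding gene, those of *ARF1*, *ARF7*, *AFB1*, *AFB3* and *IAA11*, beside 42.3% of all regions at a protein-coding gene.

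**Figure D4:**
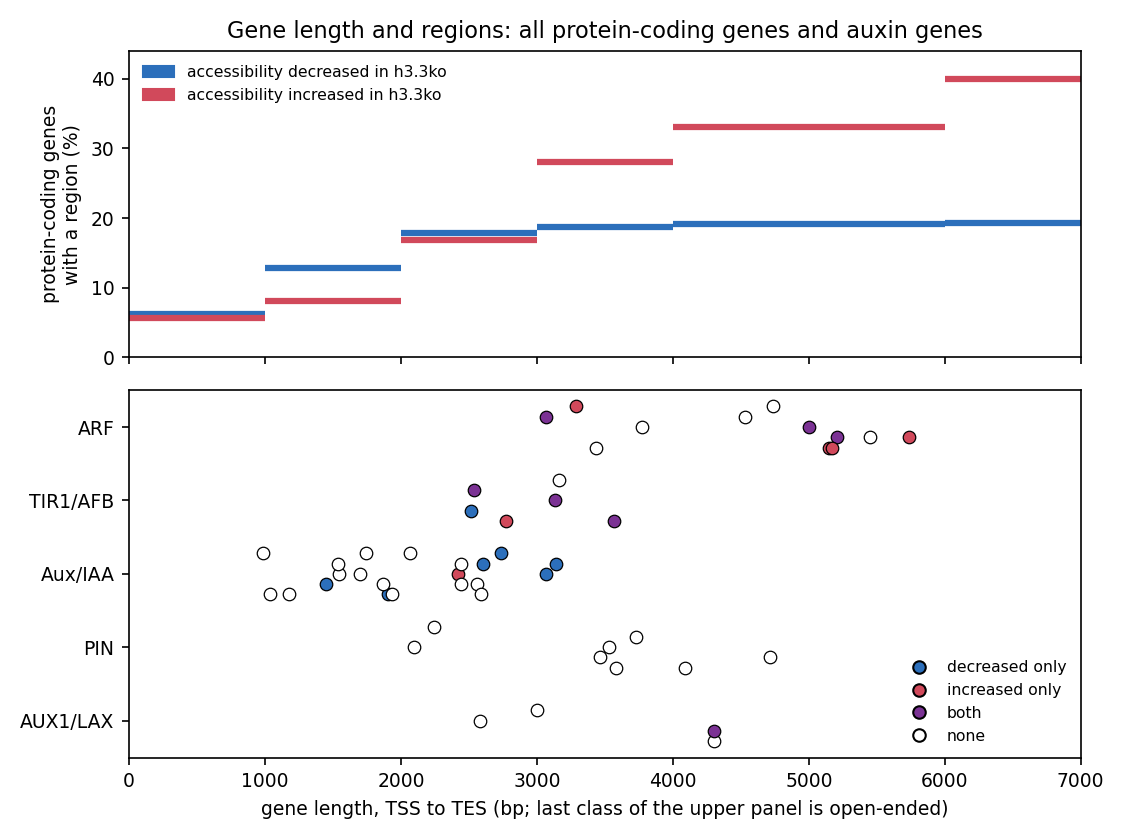
Top, share of protein-coding genes (%) with a region of each kind by class of gene length (bp). Bottom, length of each member by family, filled by the kind of region it has (points are spread vertically only to separate them). Increased regions become more frequent with length over all genes, from 5.67% to 40.0%, while *PIN* genes of 2098 to 4713 bp have none.

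Gene length moved with the counts. Members had a median length of 3002 bp, beside 2078 bp over all protein-coding genes, and *ARF* genes one of 4869 bp. Over all protein-coding genes the share with an increased region was 5.67% below 1 kb, 28.0% between 3 and 4 kb and 33.1% between 4 and 6 kb. The share with a decreased region went from 6.31% to 18.7% and 19.2% over the same classes. Among members, the 13 genes with an increased region were all at least 2 kb long. Of the 12 members between 4 and 6 kb, 6 had one, and of the 14 between 3 and 4 kb, 4 had one. With genes of at least 2 kb alone, 13 of 40 members (32.5%) had an increased region, beside 23.9%, and 12 of 40 (30.0%) a decreased one, beside 18.4%. The 21 *Aux/IAA* genes had a median of 1937 bp, and *PIN* genes, with a median of 3555 bp, had no region. The part of length in the shares of the families was not tested further.

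The auxin response elements were searched as exact matches on both strands, with no match overlapping another in the 250 bp upstream of members. TGTCGG was found in 5 of the 15 decreased regions at members (33.3%, beside 16.4% of the list), those at *AFB1*, *IAA2*, *IAA9*, *IAA13* and *IAA16*. TGTCTC was found in 2 (13.3%, beside 26.9%) and the G-box in 4 (26.7%, beside 33.9%). In the 250 bp before the TSS, TGTCGG occurred in 9 of the 51 members (17.6%, beside 4.16% of all protein-coding genes), and 6 of these were *Aux/IAA* genes. Of those 9, *IAA13* and *IAA16* had a decreased region and *ARF7* an increased one, while *ARF19*, *IAA1*, *IAA5*, *IAA12*, *IAA27* and *LAX3* had no region. TGTCTC occurred in 8 (15.7%, beside 10.9%), and the G-box in 2 (3.92%, beside 6.49%). The increased regions held TGTCTC in 7 of 15 (46.7%, beside 43.4%), and none held TGTCGG. A match is a string of letters and does not show that a factor binds there.

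Other genes of the auxin pathway were counted in the same way. All 5 *TOPLESS* genes, which encode the co-repressors recruited by Aux/IAA proteins, had a region. A decreased region was found at 4 (80.0%, beside 14.7% of all protein-coding genes) and an increased one at 4 (80.0%, beside 16.0%). *TPL* had a decreased region of 643 bp across the TSS (-2.66) and an increased one of 1939 bp across the TES (4.42). *TPR2* had -2.07 upstream and 4.20 inside the gene, and *TPR3* had -2.21 across the TSS and 3.52 inside the gene. *TPR1* had a decreased region alone, across the TSS (-2.48). *TPR4* had an increased region alone (2.31), and was named after its values were seen. These genes are between 6217 and 8213 bp long. Of all protein-coding genes of at least 6000 bp, 19.3% had a decreased and 40.0% an increased region.

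**Figure D5:**
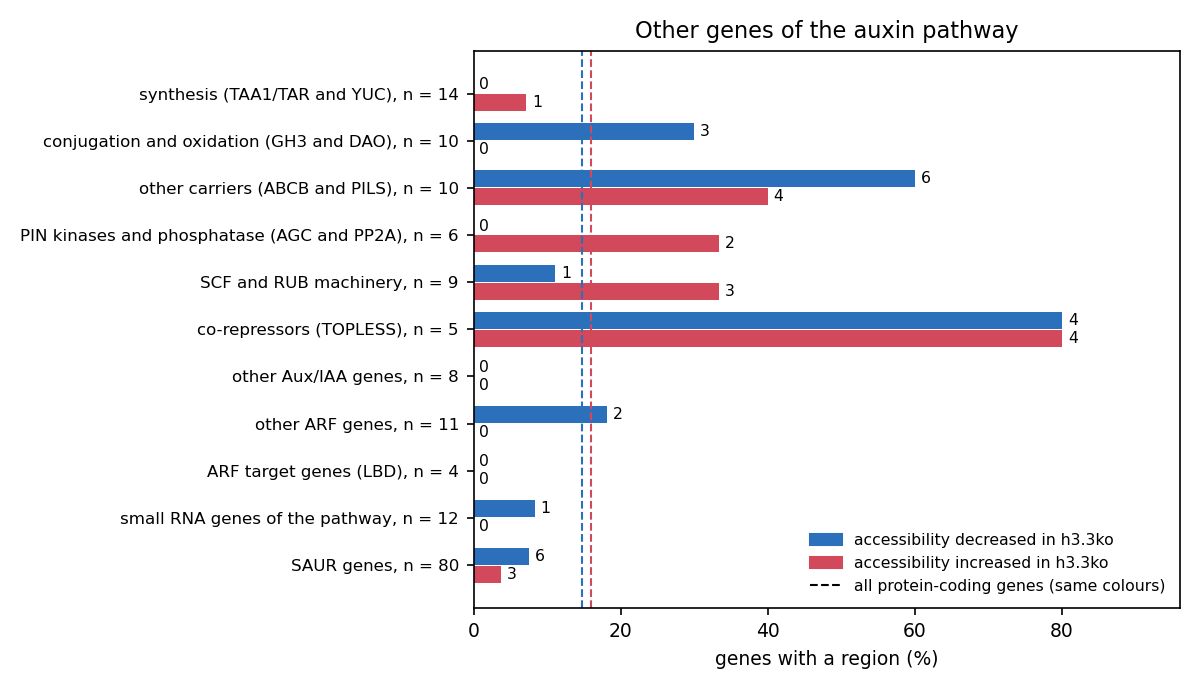
Share of genes (%) with a decreased or increased region in other gene lists of the auxin pathway, with the number of genes beside each bar and dashed lines for all protein-coding genes (14.7% and 16.0%). The 5 *TOPLESS* genes have 4 of each kind, and the lists of synthesis, other *Aux/IAA*, *LBD*, small RNA and *SAUR* genes lie below both lines.

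Of 10 carriers of the ABCB and PILS families, 6 (60.0%) had a decreased and 4 (40.0%) an increased region. Of all protein-coding genes, 14.7% had a decreased and 16.0% an increased region, with gene length not taken into account. *ABCB1*, an efflux carrier, had 3.41, *PILS6* had 3.19, *ABCB21* had 2.81 and -1.05, and *ABCB4* had -2.34 and -2.20. The first region of *ABCB4* lay upstream of the TSS, and the second 4885 to 5322 bp past it in a gene of 5701 bp. Of 9 genes of the ubiquitin ligase and its RUB modification, 1 (11.1%) had a decreased and 3 (33.3%) an increased region. *CUL1*, the cullin of the ligase, had 3.73, *AXR1*, of the enzyme that activates RUB, had 2.33, and *CAND1*, which exchanges F-box proteins, had -1.78 across the TSS and 1.31 across the TES. Of 6 genes for PIN kinases and a phosphatase subunit, 2 (33.3%) had an increased region, *RCN1* (3.27) and *PID* (1.33), and none a decreased one.

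Of 14 synthesis genes of the TAA1/TAR and YUC families, *TAA1* alone (7.14%, beside 16.0% of all protein-coding genes) had an increased region. Its log2 fold change was 1.04, at rank 3429 of 3436 in its list, and no synthesis gene had a decreased region. Of 10 genes for conjugation and oxidation, 3 (30.0%, beside 14.7% of all protein-coding genes) had a decreased region, *GH3.2* (-1.84), *GH3.5* (-2.00) and *GH3.6* (-1.86), whose products join auxin to amino acids, and none an increased one. Among 11 further *ARF* genes, 2 (18.2%, beside 14.7%) had a decreased region, *ARF18* (-1.27) and *ARF11* (-1.93). That of *ARF18* lay upstream of the TSS. That of *ARF11* lay near the TES, 3579 to 3790 bp past the TSS of a gene of 3855 bp. An increased region was found at none of these 11 genes (0.00%, beside 16.0%). None of 8 further *Aux/IAA* genes and none of 4 *LBD* genes, which ARF7 and ARF19 activate in roots, had a region.

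Of 12 genes for small RNAs that act on members directly or, for miR390, through *TAS3*, the gene *TAS3* (AT3G17185) alone had a region. *TAS3* is the source of the small RNAs that cleave *ARF2*, *ARF3* and *ARF4* transcripts, and its decreased region of 444 bp reached across the TSS (-2.67). Over all genes other than pseudogenes, the shares with a decreased and an increased region were 13.9% and 14.4%. The genes of miR160, miR167, miR390 and miR393 had none. Of 80 *SAUR* genes, which are short and induced early by auxin, 6 (7.50%) had a decreased and 3 (3.75%) an increased region. The shares were 14.7% and 16.0% over all protein-coding genes, and 6.31% and 5.67% over those below 1 kb. The largest values were those of *SAUR60* (5.09, rank 24 in its list), *SAUR49* (-2.58), *SAUR8* (2.39) and *SAUR44* (-1.56). The increased regions of *SAUR60* and *SAUR8* lay upstream of the TSS.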

How the data were processed

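Mature seeds of Col and *h3.3ko* were compared with 2 replicates per genotype. The authors trimmed ATAC-seq reads with fastp 0.20.1, aligned them to TAIR10 with Bowtie2, dropped organelle reads and duplicates (Picard 2.24.0), and retained MACS2 peaks present in both replicates. Merged peaks that differed more than 2-fold with adjusted *P* below 0.05 were listed, each with a log2 fold change deposited by the authors. These values come from the authors' own comparison, since the lists hold no other measurement. The test behind *P* and any Tn5 shift are not given in the sources used here. An unshifted read would move region edges by a few bases. Libraries of imbibed seeds and seedlings (12 libraries of 6 conditions in all) were not analysed here.

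Regions were joined to the RefSeq annotation of TAIR10.1, whose nuclear coordinates were checked by shifting. Midpoints of 68.6% of decreased regions fell at most 500 bp from a TSS unshifted, against 18.3% and 17.9% when moved 1000 bp left or right. Counts are descriptions beside the share of all protein-coding genes, with no test. The members, the gene lists and the motifs were chosen with earlier results of these data known. Members were named, except 1 that is not reported singly here, and at most 4 genes of each other list, those with the largest absolute log2 fold change, with *TPR4* added. The counting was tested on simulated data. Alternatives covered the gene window, overlap, fold change, gene length, background set and central 200 bp of regions. Python 3.11.15 and numpy 2.4.6 were used.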

Additional observations from a re-analysis of the deposited data

How the results depend on the processing

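Of 48 recomputed counts and shares, 42 stayed within 1.5 times the value reported and 6 did not. With the gene body alone, members with a decreased region went from 14 to 8 (15.7%, beside 10.5% of protein-coding genes), without *ARF2*, *AFB1*, *AFB3*, *IAA11*, *IAA26* and *LAX1*, and members with both kinds from 7 to 4 (7.84%, beside 2.53%). With changes of more than 4-fold only, the share of protein-coding genes with a decreased region went from 14.7% to 6.93%, and 11 members (21.6%) had one. In the central 200 bp of the decreased regions, the G-box was found in 1, TGTCTC in 0 and TGTCGG in 2 of 15, beside 17.9%, 10.2% and 7.23% of the whole list. These alternatives use fewer bases or fewer regions by construction. With 1 kb added downstream, members with a decreased region went to 18 (35.3%, beside 16.7%), with *ARF19*, *AFB4*, *IAA28* and *LAX2*, and those with an increased region to 14 (27.5%, beside 19.0%), with *IAA13*. Counting each region for 1 gene left 12 members with a decreased region (23.5%, beside 10.3%), without *AFB1* and *IAA11*.

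The lists give 1 value per region, so replicate error, depth and the weight of a single library were not measurable. No paired analysis was possible because the lists hold no value per sample. A gene without a listed region is not shown to be unchanged.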
